A study of Mus musculus with 76 samples.

Results

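The genes described here encode neuronal intermediate filament proteins and tubulins, the building blocks of the cytoskeleton of a nerve cell. They are taken by gene name, with no cutoff on a measured value: the neurofilament subunits Nefl, Nefm and Nefh, the related filament proteins Ina (alpha-internexin) and Prph (peripherin), the beta-tubulins Tubb2a, Tubb2b and Tubb3, and the alpha-tubulins Tuba1a and Tuba4a. These are 10 of the 38924 genes in the deposited count table, and each of the 10 passed the filter on low counts in every comparison. They were measured by bulk RNA sequencing of polyadenylated RNA from neural cultures differentiated from embryonic stem cells of the mouse.

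The cultures came from 2 inbred strains, C57BL/6J (B6), the reference laboratory strain, and WSB/EiJ (WSB), a wild-derived strain. They were sampled as neural progenitors (NPC in the plots), at a stage of neuronal maturation, and at a stage of axonal injury, here called the axon stage. At each stage, part of the cultures of each strain received ID-8, which blocks the protein kinase DYRK1A, and the rest served as controls; at the axon stage, part of the control and of the ID-8 cultures were axotomised (cut) and part were left uncut. The labels name no other genotype or agent, and they give no dose, day or age. The 16 groups held 70 libraries, namely 6 for each of the 4 progenitor groups, 4 for each of the 4 maturation groups, and 4 for each of the 8 axon-stage groups except uncut WSB with ID-8 and cut B6 with ID-8, which had 3 each. No source used here says how many stem cell lines stand behind a strain or that the replicates were separate cultures, so p-values measure the spread between these libraries, which may be technical.

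Neurofilaments are heteropolymers that fill the shafts of axons. Their light (Nefl), medium (Nefm) and heavy (Nefh) subunits coassemble with Ina in central neurons and with Prph in peripheral and some other neurons. Ina and Nefm are known for early expression in newly formed neurons, and Nefh for a late rise as axons enlarge; its long tail carries many lysine-serine-proline repeats that are phosphorylated. Microtubules are polymers of alpha- and beta-tubulin pairs, along which cargo moves in axons. Tuba1a, Tubb2b and Tubb3 are known as the tubulins of young neurons, Tubb2a as a beta-tubulin of both young and adult neurons, and Tuba4a as an alpha-tubulin of mature tissue.

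Several of these genes resemble each other so closely that short reads cannot always be assigned, which is why the sequences come before the values. All coordinates are on GRCm38 and the sequences are read from that genome on the coding strand, 5′ to 3′. The last 90 coding bases before the stop codon are shown for 4 of the tubulins, since this stretch encodes the acidic tail in which many tubulin isotypes differ. Capitals mark the bases at which Tubb2a (chr13:34074471-34074560, minus strand) and Tubb2b (chr13:34127474-34127563, minus strand) differ.
Tubb2a: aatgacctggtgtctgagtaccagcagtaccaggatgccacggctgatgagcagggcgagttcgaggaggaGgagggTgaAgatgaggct
Tubb2b: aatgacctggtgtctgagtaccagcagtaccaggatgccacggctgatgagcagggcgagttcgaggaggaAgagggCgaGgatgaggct
The pair differed at 3 of these 90 bases and at 47 of 1335 coding bases (96.5% identical), with a longest identical run of 551 bases. The tail of this pair was no less alike than the rest, 96.7% identical against 96.5% before it. Read in frame, the 3 marked bases leave the encoded amino acids the same. Tubb3 (chr8:123421590-123421679, plus strand) has a tail of its own.
Tubb3: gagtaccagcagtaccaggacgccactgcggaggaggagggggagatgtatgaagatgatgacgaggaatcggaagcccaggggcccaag
The alpha-tubulin Tuba4a (chr1:75215625-75215714, minus strand) is the last of the tubulins shown.
Tuba4a: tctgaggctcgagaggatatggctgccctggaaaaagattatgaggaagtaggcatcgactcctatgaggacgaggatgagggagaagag

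Of all runs of 50 exon bases in Tuba1a, 72.9% also occurred in another gene (46.9% in Tuba1c and 43.4% in Tuba1b). The share was 49.6% for Tubb2a (45.6% in Tubb2b) and 39.3% for Tubb2b, 1.11% for Tuba4a, 0.0275% for Nefm and 0 for the other 5 genes. Reads of Tubb2a, Tubb2b and Tuba1a may therefore have been divided between copies by the authors' counting, so each call on them is given also for counts summed over the genes that share sequence, except in fits of part of the libraries or with a replicate block. Tubb2a (chr13:34074274-34078007) and Tubb2b (chr13:34126748-34130466) are neighbours on the minus strand, as Nefl (chr14:68083863-68089095, plus strand) and Nefm (chr14:68082590-68124846, minus strand) are on opposite strands. Annotated exons of Nefm cover 1108 of the 3380 exon bases of Nefl on the other strand, and exons of Stk16 cover 1379 of 3701 in Tuba4a (chr1:75214228-75219865, minus strand). The library kit keeps the strand; whether the counting used it is not given in the sources used here, so antisense reads may be included in these genes. The remaining genes lie at chr11:4938754-4948064 (Nefh, minus strand), chr19:47014698-47025327 (Ina, plus strand, 456 of 3240 exon bases under Nt5c2 on the other strand), chr15:99055174-99058978 (Prph, plus strand), chr8:123411424-123422015 (Tubb3, plus strand) and chr15:98949837-98953703 (Tuba1a, minus strand, 473 of 1803 exon bases under Gm49450 on the same strand).

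Nefh is told from the other filament genes by its tail repeat. A stretch of 120 bases (chr11:4940938-4941057, minus strand) holds the most repeats, and capitals mark in-frame runs of a lysine codon (AAA or AAG), a serine codon (TCN, AGT or AGC) and a proline codon (CCN).
Nefh: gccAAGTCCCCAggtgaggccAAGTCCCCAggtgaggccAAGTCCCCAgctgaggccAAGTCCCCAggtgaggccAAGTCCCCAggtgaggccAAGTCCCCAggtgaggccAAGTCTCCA
Its coding sequence of 3270 bases held 51 such matches (sense strand and reading frame only), the highest count among 21756 coding genes. Nefm held 4 in 2544 bases and the other 8 genes none, while 10.6% of coding genes held at least 1. A match is a description of the letters and not a measured phosphorylation site.

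Library depth ran from 22882468 to 131489457 counts in progenitors, 25122699 to 41736072 at maturation and 20368997 to 99188615 at the axon stage. Libraries fall into 3 blocks by the series of their library numbers; what else the libraries of a block share is not given in the sources used here. The progenitors were divided over the first and second, most of the axon stage was in the second, and maturation, with 1 WSB culture set of the axon stage, was in the third, so maturation and that block cannot be told apart. A batch column of the deposited table divides first runs in the same way, except that it sets that WSB set apart from maturation. The markers met the stage labels in part. Pan-neuronal genes were already expressed in progenitor controls, where 10 of them summed to 1209 to 3474 CPM (counts-per-million). There 6 pluripotency genes summed to 327.2 to 873 CPM in B6 but 23.89 to 48.31 CPM in WSB progenitor controls. In the maturation controls the same 6 genes summed to at most 0.6477 CPM, with the means of Pou5f1 and Dppa5a at 0 in B6. At the axon stage the summed astrocyte markers ranged from 1373 to 3132 CPM in B6, and the WSB culture sets differed far more, with a lowest sum of 1290 CPM and group medians of 6553 CPM or more. The third library of cut WSB cultures with ID-8 stood apart, with fibroblast markers summing to 7140 CPM against 54.07 to 3110 CPM in the other 3 of its group. In such bulk samples fewer cells of a type and less RNA per cell cannot be told apart.

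**Figure D1:**
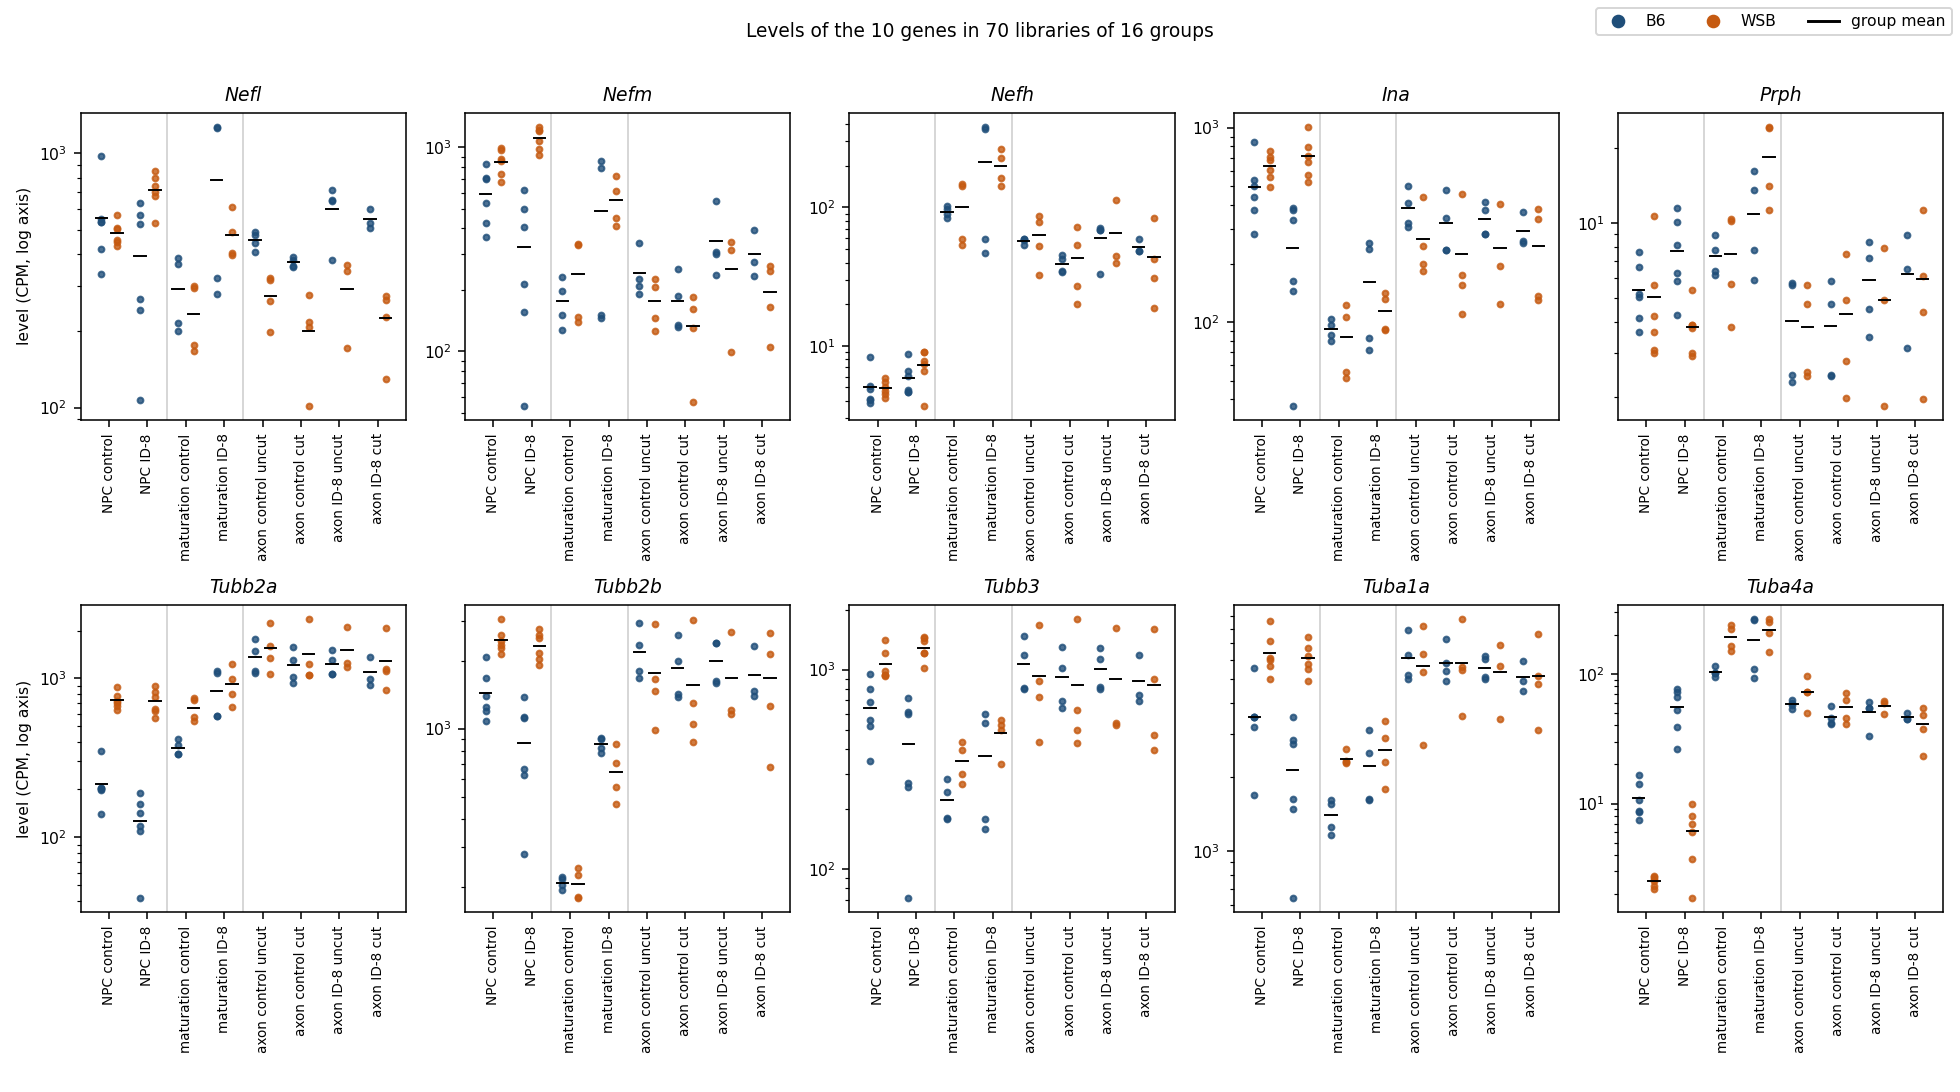
Level of each of the 10 genes in every library (CPM, log axis) by condition, with B6 and WSB in separate colours and a bar at each group mean. Among controls, Nefh and Tuba4a are low in progenitors and high at maturation, and Tubb2b shows the opposite order.

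Among the filament genes, Nefl, Nefm and Ina were abundant in progenitors and Nefh was scarce. Nefl stood at 557.5 ± 221.1 CPM (SD, n = 6) in B6 and 486.2 ± 52.42 CPM (n = 6) in WSB progenitor controls. Nefm stood at 592 ± 180.9 and 849.9 ± 124.2 CPM, and Ina at 498 ± 194.3 and 633.9 ± 99.08 CPM in the same groups. Nefh reached only 5.055 ± 1.674 CPM in B6 and 4.963 ± 0.6352 CPM in WSB, close to Prph at 5.377 ± 1.512 and 5.032 ± 2.907 CPM. Per kilobase of the longest coding transcript, Nefh made up 0.2672% of the summed level of the 5 filament genes in B6 progenitor controls, 4.32% in uncut controls of the axon stage and 12.7% at maturation. The shares in WSB were 0.2159%, 6.914% and 12.88%. The share of Ina went from 31.54% in B6 and 34.09% in WSB progenitors to 15.48% and 13.61% at maturation, but stood at 35.24% and 35.15% at the axon stage. Nefl had the largest share of the 5 at maturation, 44.64% in B6 and 37.8% in WSB. It also had the largest mean share in uncut axon-stage controls, 40.39% and 35.99%, in WSB close to Ina. In progenitor controls Nefl and Nefm held 33.85% and 33.65% in B6, and 25.03% and 40.19% in WSB. No test was run on shares.

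Among the tubulins, Tuba1a was the most abundant at every stage. Per kilobase it made up 62.13% of the summed level of the 5 tubulins in B6 progenitor controls, 61.6% at maturation and 58.24% in uncut axon-stage controls, with 61.9%, 63.81% and 57.38% in WSB. The 2 beta-tubulins of the close pair exchanged places: Tubb2b held 22.15% and Tubb2a 4.392% in B6 progenitor controls, against 7.698% and 18.13% at maturation. In WSB the values were 20.09% and 8.008% in progenitors and 4.56% and 19.39% at maturation. Tuba4a held 0.1485% in B6 and 0.01574% in WSB progenitor controls, and 2.937% and 3.277% at maturation. Tubb3, the usual marker of neurons, stayed between 8.802% and 11.17% in these control groups.

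In the order of the 16 group means, neighbouring groups overlapped in all 15 steps for Nefl, Nefm, Ina, Prph, Tubb3 and Tuba1a. For Nefh 1 step was clear, between the axon-stage group with the lowest mean (cut B6 controls, 39.19 ± 5.641 CPM, n = 4) and the progenitor group with the highest (WSB with ID-8, 7.224 ± 1.977 CPM, n = 6). For Tuba4a the clear step lay between cut WSB cultures with ID-8 (40.8 CPM) and B6 progenitor controls (11.05 ± 3.535 CPM), with the B6 progenitors on ID-8 (55.54 ± 19.87 CPM) placed among the axon-stage groups. For Tubb2b it lay between the maturation groups with ID-8 and those without, which were the lowest of all. For Tubb2a it lay between the WSB (648.4 ± 107.9 CPM) and B6 (365.6 ± 37.92 CPM) maturation controls. Clear steps were not counted over all genes, so having 1 does not set a gene apart.

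At maturation, compared with progenitor controls of the same strain, the cultures had less of most young-neuron subunits and much more Nefh and Tuba4a. In edgeR's quasi-likelihood test with Benjamini-Hochberg adjustment (called here at an adjusted p below 0.05), 3 of the 10 genes were higher and 6 lower in B6, and 2 higher and 6 lower in WSB. The same rule called 73.3% of all 17608 genes in B6 and 74.3% in WSB, so being called sets none of these genes apart. The median log2 difference of the 10 genes was -1.13 in B6 and -1.26 in WSB, against 0.00 and 0.06 over all genes.

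Nefh was at 97.51, 90.12, 102.6 and 83.53 CPM in the 4 B6 maturation controls and at 58.82, 53.36, 143.5 and 148.9 CPM in the 4 WSB ones. The 6 progenitor controls ran from 3.864 through a median of 4.491 to 8.32 CPM in B6 and from 4.181 through 4.867 to 5.865 CPM in WSB. The groups did not overlap, and the log2 difference was 4.21 ± 0.27 (SE, adjusted p = 2.015e-11) in B6 and 4.33 ± 0.27 (adjusted p = 1.306e-11) in WSB, a fold of 18.45 and 20.07. Ina fell by 2.45 ± 0.28 on the log2 scale in B6 (adjusted p = 1.319e-07) and by 2.94 ± 0.29 in WSB (adjusted p = 1.247e-08). Its maturation controls lay between 80.03 and 104.1 CPM in B6, below the lowest progenitor control at 282.5 CPM. Nefm fell by 1.74 ± 0.28 and 1.85 ± 0.28, and Nefl by 0.93 ± 0.26 (adjusted p = 0.003384) and 1.07 ± 0.26 (adjusted p = 0.001096). Nefl, the core subunit of the filament, had the smallest fall of these 3, a difference not tested. Prph was at 7.344 ± 1.289 CPM in B6 and 7.51 ± 3.265 CPM in WSB and passed no test (adjusted p = 0.234 and 0.1379); against the WSB progenitors of the second block alone its log2 difference was 1.18 with an adjusted p of 0.004897.

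Tuba4a was at 115.6, 102.1, 101.4 and 94.36 CPM in B6 and at 150.5, 163.7, 221.6 and 237.7 CPM in WSB at maturation. Progenitor controls ran from 7.52 through 9.769 to 16.47 CPM in B6 and from 2.197 through 2.574 to 2.767 CPM in WSB. The log2 difference was 3.22 ± 0.18 (adjusted p = 4.846e-12) in B6, 9.335-fold, and 6.25 ± 0.21 (adjusted p = 3.491e-15) in WSB, 75.86-fold. The WSB progenitors were below every B6 progenitor control, and the WSB maturation libraries above every B6 one. Tubb2b was at 203.7, 216.9, 193.2 and 221.2 CPM in B6 and at 178.5, 180.3, 224.5 and 242.3 CPM in WSB, each below every progenitor control (1083 to 2072 and 2143 to 3051 CPM). It fell by 2.80 ± 0.18 in B6 (adjusted p = 2.287e-11) and by 3.60 ± 0.19 in WSB (adjusted p = 1.116e-12). Tubb3 fell by 1.55 ± 0.24 and 1.63 ± 0.24 and Tuba1a by 1.33 ± 0.23 and 1.44 ± 0.23. Tubb2a differed from its close relative: its log2 difference was 0.75 ± 0.18 in B6 (adjusted p = 0.0007036) and -0.19 (adjusted p = 0.3519) in WSB. Counts of Tubb2a and Tubb2b summed fell by 1.54 ± 0.17 in B6 (adjusted p = 7.228e-08) and by 1.92 ± 0.17 in WSB, opposite in sign to Tubb2a alone in B6. How far the division of reads within the pair enters the value of Tubb2a was not tested. Tubb2a made up 12.93% of the pair in B6 and 22.81% in WSB progenitor controls, and 63.56% and 75.82% at maturation. Tuba1a summed with the genes that share its sequence fell by 1.23 ± 0.17 and 1.17 ± 0.17.

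**Figure D2:**
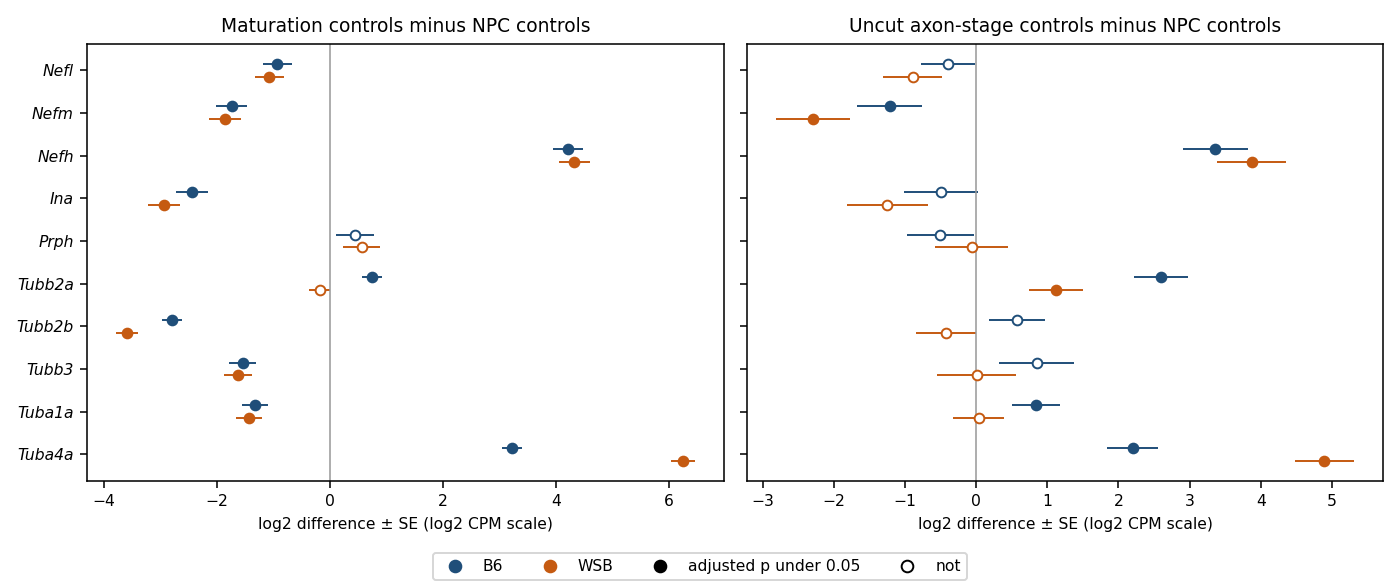
Log2 difference ± SE of each gene between maturation and progenitor controls (left) and between uncut axon-stage and progenitor controls (right), with B6 and WSB side by side and filled symbols for an adjusted p below 0.05. Nefh and Tuba4a are higher in both panels and both strains, Tubb2b, Ina, Tubb3 and Tuba1a are lower at maturation, and Nefm is lower throughout.

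The proteins that use these polymers were described from lists of the pathway, whose counts stand beside the 73.3% and 74.3% of all genes called. Of 13 axonal transport motors, 10 were higher and 0 lower at maturation in B6 (list median 0.91) and 5 higher and 2 lower in WSB (0.06); Dync1i1, a chain of cytoplasmic dynein, differed by 3.86 and 2.99 and Kif1a, a carrier of synaptic vesicle precursors, by 2.41 and 1.30. Of 15 tubulin folding cofactors 4 were higher and 10 lower in B6 and 3 and 9 in WSB, and of 8 microtubule severing genes 2 were higher and 6 lower in both strains. The microtubule-associated proteins were divided, 9 higher and 7 lower of 20 in B6 and 6 and 11 in WSB, with Dcx, which marks migrating young neurons, at -6.08 and -7.00. Of 13 other tubulins tested, 3 were higher and 7 lower in B6 and 4 and 5 in WSB, including Tubb5, a beta-tubulin of dividing cells, at -2.70 and -2.89. Other intermediate filament genes were 5 higher and 6 lower of 12 in both strains. Among marker lists, all 6 pluripotency genes were lower in both strains, 6 of 6 astrocyte genes were higher in B6 and 5 of 6 in WSB, and the 10 pan-neuronal genes were 6 higher and 2 lower in B6 and 2 and 3 in WSB. The part of these cell types in the levels of the filament and tubulin genes was not tested.

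At the axon stage, the uncut controls were compared with progenitor controls of the same library block, 4 against 3 libraries in B6 and 3 against 3 in WSB; the fourth uncut WSB control is of another block and was left out of this test. Nefh and Tuba4a were again higher, Nefm again lower, and Tubb2b and Tubb3, unlike at maturation, showed no called difference. In B6, 4 of the 10 genes were higher and 1 lower (57% of 18980 genes called), and in WSB 3 higher and 1 lower (51.1% called). The median of the 10 was 0.71 in B6 and -0.03 in WSB, against 0.00 and 0.02 over all genes.

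Nefh was at 59.11, 59.51, 53.29 and 58.5 CPM in the 4 uncut B6 controls and at 87.15, 52.87, 78.28 and 32.55 CPM in the 4 WSB ones, all above every progenitor control. The log2 difference was 3.36 ± 0.46 (adjusted p = 4.753e-07, 10.29-fold) in B6 and 3.87 ± 0.48 (adjusted p = 1.442e-07, 14.64-fold) in WSB. Nefm was at 338, 209.8, 191.3 and 226.6 CPM in B6 and at 206.9, 126.4, 145.2 and 226.4 CPM in WSB. It fell by 2.30 ± 0.52 in WSB (adjusted p = 0.0004811) and by 1.22 ± 0.46 in B6 (adjusted p = 0.02495); the B6 call was lost without replicate 2 of the axon stage or replicate 4 of the progenitors, at -1.13 and -0.90. Nefl differed by -0.40 in B6 (adjusted p = 0.3814) and by -0.89 in WSB (adjusted p = 0.06977), with intervals from -1.14 to 0.34 and from -1.70 to -0.09. Ina differed by -0.50 and -1.25 (adjusted p = 0.06638 in WSB) and Prph by -0.50 and -0.06, and neither passed the test.

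Tubb2a was at 1490, 1758, 1079 and 1110 CPM in uncut B6 controls and at 2229, 1346, 1599 and 1059 CPM in WSB, above all progenitor controls of the strain. It rose by 2.60 ± 0.38 on the log2 scale (adjusted p = 1.698e-06, 6.042-fold) in B6 and by 1.12 ± 0.38 (adjusted p = 0.01418, 2.179-fold) in WSB. The WSB call was lost without the first axon-stage library (0.94) or the sixth progenitor library (1.01). Summed with Tubb2b the difference was 1.09 ± 0.38 (adjusted p = 0.01703) in B6 and 0.12 ± 0.40 (adjusted p = 0.8182) in WSB, so the WSB call did not hold for the pair. Tuba4a was at 59.96, 62.51, 53.49 and 57.24 CPM in B6 and at 72.22, 72.29, 95.77 and 49.93 CPM in WSB, and rose by 2.20 ± 0.35 (adjusted p = 6.158e-06) and by 4.89 ± 0.42 (adjusted p = 2.224e-10), 4.59-fold and 29.74-fold. The difference of these 2 changes was 2.70 ± 0.50 (adjusted p = 0.003215), the single call among the 10 genes in the test of the strain difference, which called 2.1% of all genes. Tuba1a differed by 0.84 ± 0.34 in B6 (adjusted p = 0.0353) and by 0.03 in WSB. Its B6 call was lost in 4 of 7 fits with a library left out, at the first and second axon-stage and the fifth and sixth progenitor libraries; the log2 difference then lay between 0.50 and 0.84. With unscaled library totals it was 0.77 (adjusted p = 0.05773). Summed with the genes that share its sequence it was 0.68 ± 0.24 (adjusted p = 0.01823) in B6, still called, and 0.08 ± 0.25 (adjusted p = 0.819) in WSB. Tubb2b differed by 0.57 (adjusted p = 0.2257) and -0.42, and Tubb3 by 0.85 (adjusted p = 0.1746) and 0.01.

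Of the 13 motors, 7 were higher and 0 lower at the axon stage in B6 and 5 and 0 in WSB, a share no higher than the 57% and 51.1% of all genes called, with Dync1i1 at 4.15 and 3.77 and Kif1a at 2.48 and 1.89. Of 20 microtubule-associated proteins 12 were higher and 1 lower in B6 and 8 and 1 in WSB, among them Map1a, a protein of mature axons and dendrites, at 2.69 and 2.23. Folding cofactors were mostly lower, 8 of 15 in B6 and 10 in WSB against 1 and 2 higher, with the chaperonin subunit Cct2 at -1.09 and -1.14. Tubulin modifying enzymes were 8 higher and 4 lower of 18 in B6 and 7 and 3 in WSB. The severing gene Fignl2 was at -5.19 and -5.57 at the axon stage and at -5.03 and -5.25 at maturation. Pan-neuronal markers were 8 higher and 0 lower of 10 in B6 and 4 and 1 in WSB (list medians 1.72 and 0.87). Astrocyte genes were 5 higher and 0 lower of 6 in both strains (6.03 and 7.44), fibroblast genes 5 and 0 of 6 in B6 and 2 and 0 in WSB (4.37 and 2.31), and all 6 pluripotency genes were lower in both (-8.15 and -8.21). The part of these cell types in the result was not tested. Maturation and axon-stage values above share their progenitor controls in part.

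In B6 progenitors on ID-8, most of the abundant genes of the group fell and Tuba4a rose. Of the 10 genes, 1 was higher and 5 were lower in B6, where 40.4% of 17248 genes were called, and 1 was higher and 0 lower in WSB, where 9.57% were called. The median of the 10 was -0.72 in B6 and 0.19 in WSB, against -0.04 and 0.00 over all genes.

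Tuba4a ran from 7.52 through 9.769 to 16.47 CPM in the 6 B6 controls and from 26.31 through 59.51 to 76.3 CPM with ID-8. The 2 groups did not overlap, and the log2 difference was 2.29 ± 0.30 (adjusted p = 1e-05, 4.892-fold). In WSB it ran from 2.197 through 2.574 to 2.767 CPM in controls and from 1.874 through 6.488 to 9.953 CPM with ID-8; the groups overlapped at 1 library, and the difference was 1.24 ± 0.30 (adjusted p = 0.0112, 2.364-fold). Control and ID-8 libraries of the same number or culture date form 6 culture sets a strain, and Tuba4a was higher with ID-8 in 6 of 6 B6 sets, by 1.61 to 2.81, and in 5 of 6 WSB sets, by -0.56 to 1.88. Counts of Tuba1a in B6 moved the other way, from 1685, 3508 and 5558 CPM (lowest, median, highest) to 644.1, 2172 and 3503 CPM, a log2 difference of -0.78 ± 0.30 (adjusted p = 0.04187). Summed with the genes that share its sequence the difference was -0.37 ± 0.17 (adjusted p = 0.08941), so the call did not hold for the sum, and with no filter on low counts its adjusted p was 0.06723; the summed group held 68.44% Tuba1a in B6 controls and 50.05% with ID-8.

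The filament genes Nefm and Ina were lower in all 6 B6 sets. Nefm ran from 364.1 through 616.6 to 827.4 CPM in controls and from 54.21 through 310.7 to 620.1 CPM with ID-8, a log2 difference of -0.98 ± 0.35 (adjusted p = 0.02826). Ina ran from 282.5 through 470.4 to 847.8 CPM and from 37.1 through 248.3 to 385 CPM, a difference of -1.09 ± 0.38 (adjusted p = 0.02669). Both pairs of groups overlapped, and without the library block as a covariate the adjusted p of Nefm was 0.05155. Tubb2a fell by 0.82 ± 0.26 (adjusted p = 0.0141) and Tubb2b by 0.79 ± 0.26 (adjusted p = 0.01946), and the pair summed fell by 0.80 ± 0.26 (adjusted p = 0.0182). Nefl differed by -0.58 (adjusted p = 0.1444) and Tubb3 by -0.67 (adjusted p = 0.1308), and Nefh by 0.19 and Prph by 0.46 (adjusted p = 0.2064). In WSB, Nefl and Nefm were higher in 6 of 6 sets, at 0.53 (adjusted p = 0.3167) and 0.35, below the call.

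The size of the B6 differences depended on the library block. In the first block alone the log2 differences were -0.49 for Nefm, -0.55 for Ina, -0.42 for Tubb2a, -0.44 for Tubb2b and -0.46 for Tuba1a, and in the second -1.52, -1.73, -1.25, -1.18 and -1.11. Within either block alone, with 3 libraries a group, Tuba4a was the single gene of the 10 called in B6 and none was called in WSB. In the first and second block these fits called 7.98% and 22.7% of all genes in B6. In WSB they called 0.961% and 0.0117%, so the lack of calls there does not set these genes apart. With the culture set as a replicate block, a fit added after the data were seen, 1 gene was higher and 7 were lower in B6 (51.4% of genes called), adding Nefl (-0.72, adjusted p = 0.009726) and Tubb3 (-0.93, adjusted p = 0.004559). In WSB that fit called Tuba4a alone (1.10, adjusted p = 0.01354; 18.7% called). The difference of the ID-8 response between strains gave 0 calls in edgeR's test (3.19% of genes called), with 6 of the 10 genes at an unadjusted p under 0.05 and 0 called by DESeq2. The share of all genes at that unadjusted p was not counted, so the 6 do not set these genes apart. In the fit with the culture set as a block it gave 8, at 20% of genes called: 7 with a more positive difference in WSB, from 0.78 for Tuba1a (adjusted p = 0.03103) to 1.59 for Nefm (adjusted p = 0.01094), and Tuba4a at -1.15 (adjusted p = 0.03878).

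**Figure D3:**
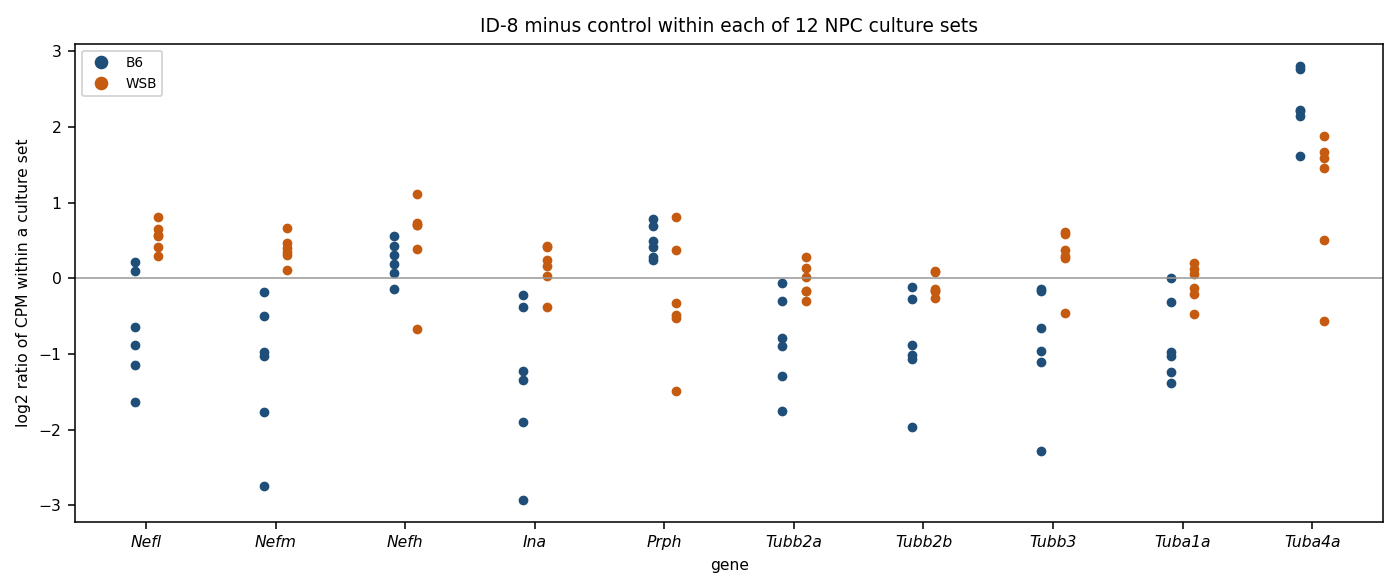
Log2 ratio of ID-8 to control within each of 12 progenitor culture sets, 6 a strain, for each gene. In B6 all 6 sets lie below 0 for Nefm, Ina, Tubb2a, Tubb2b, Tubb3 and Tuba1a and above 0 for Tuba4a and Prph, and in WSB all 6 lie above 0 for Nefl and Nefm.

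The lists of the wider pathway differed in direction in B6 progenitors on ID-8, where 40.4% of all genes were called. Motors were 0 higher and 11 lower of 13, microtubule-associated proteins 0 and 11 of 20, modifying enzymes 0 and 9 of 18, severing genes 1 and 6 of 8, and filament cross-linkers 0 and 4 of 6. Folding cofactors were 9 higher and 1 lower of 15, and other intermediate filament genes 0 and 1 of 11. Examples were Tppp3, a tubulin polymerisation-promoting protein, at -1.80, Kif5a, a neuronal kinesin, at -1.36, Map1a at -1.24 and the chaperonin subunit Cct8 at 0.51. Of 13 other tubulins 4 were higher and 1 lower, with Tubb6 at 0.88 and the neuronal Tubb4a at -1.51. In WSB at most 1 gene of any of these lists was called in either direction. Cell type markers moved with these differences in B6: pan-neuronal genes were 0 higher and 7 lower of 10 and summed to 285.6 to 1525 CPM with ID-8 against 1209 to 3006 CPM. Pluripotency genes were 4 higher and 1 lower of 6 (769.4 to 1878 against 327.2 to 873 CPM), and fibroblast genes 5 and 0 of 6 (202.4 to 592.3 against 85.93 to 196.1 CPM). In WSB pluripotency genes were 5 higher of 6 (60.16 to 331.9 against 23.89 to 48.31 CPM), while no pan-neuronal gene was called (2306 to 4087 against 2306 to 3474 CPM). The part of these cell types in the result was not tested.

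At maturation, Tubb2b rose with ID-8 in both strains. Tubb2b was at 203.7, 216.9, 193.2 and 221.2 CPM in B6 controls and at 823.1, 904.2, 913.6 and 777.9 CPM with ID-8, and at 178.5, 180.3, 224.5 and 242.3 CPM in WSB controls against 703.5, 858.3, 463.6 and 552 CPM. Every treated library was above every control library of its strain, and the log2 difference was 2.01 ± 0.18 (adjusted p = 6.261e-06, 4.036-fold) in B6 and 1.64 ± 0.18 (adjusted p = 0.0002299, 3.115-fold) in WSB. Of the 10 genes, 3 were higher and 0 lower in B6 (17.1% of 16954 genes called) and 1 higher and 0 lower in WSB (5.89% called). The median of the 10 was 0.99 in B6 and 0.74 in WSB, against 0.00 in both over all genes.

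Tubb2a rose by 1.18 ± 0.25 in B6 (adjusted p = 0.004312, 2.269-fold) and differed by 0.50 in WSB (adjusted p = 0.2733). Summed over the pair the rise was 1.54 ± 0.20 in B6 (adjusted p = 0.0001207) and 0.87 ± 0.20 in WSB (adjusted p = 0.01675). The share of Tubb2a in the pair was 48.32% in B6 and 58.78% in WSB with ID-8, against 63.56% and 75.82% in controls. Nefl was at 385.7, 366.9, 215.9 and 200.4 CPM in B6 controls and at 1265, 1254, 279.3 and 323 CPM with ID-8. Its log2 difference was 1.40 ± 0.45 (adjusted p = 0.04298), a call lost in 5 of 8 fits with a library left out. Those were the fits without control replicate 2, 3 or 4 or ID-8 replicate 1 or 2, with values from 1.07 to 1.53. In WSB Nefl was at 166.2, 175.5, 293.9 and 300.4 CPM against 404, 491.2, 615.2 and 396.7 CPM, a difference of 1.02 (adjusted p = 0.2098) with no overlap of the groups. Prph in WSB was at 5.707, 3.82, 10.15 and 10.36 CPM against 11.29, 14.01, 24.01 and 24.27 CPM, a difference of 1.28 ± 0.37 (adjusted p = 0.05218; 0.02854 with the culture experiment as a block). The 9 peripheral and motor neuron markers in the table summed to 21.58 to 47.77 CPM there with ID-8 and to 15.32 to 57.02 CPM without, and 0 rose and 1 fell.

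By the library names in the deposited table, the last 2 libraries of each maturation group carry a numbered experiment and the first 2 do not. They are called here the second and the first culture experiment, which no source describes further, and for B6 they gave different results. In the first experiment Nefh was at 97.51 and 90.12 CPM in controls and at 370.5 and 381.5 CPM with ID-8, and in the second at 102.6 and 83.53 CPM against 47.05 and 58.75 CPM. The log2 difference was 1.98 in the first alone and -0.83 (adjusted p = 0.02234) in the second alone, so the direction turned; over both it was 1.19 ± 0.57 (adjusted p = 0.166). Nefm in B6 was at 231.8 and 197.1 CPM against 854.4 and 792.9 CPM in the first, and at 151.5 and 127.2 CPM against 145.6 and 151.2 CPM in the second. Tubb3 was at 281.8 and 244.1 CPM against 598.8 and 537.8 CPM in the first, and at 176.9 and 179.5 CPM against 158.3 and 178.6 CPM in the second. In fits of the first experiment alone, added after the data were seen, all 10 genes were higher in B6 (31.4% of genes called) and 9 in WSB (13.5% called), with Tuba1a left uncalled in WSB. In the second alone 2 were higher and 1 lower in B6 (30.2% called) and 4 higher and 0 lower in WSB (15.6% called). Tubb2b and Tubb2a were the 2 called higher in both B6 experiments. Nefl was also higher in the second, at 0.52, but was not called there by edgeR's test (adjusted p = 0.0682). In WSB Nefl (0.78), Nefm (0.63), Prph (1.25) and Tubb2b were called in the second experiment also.

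**Figure D4:**
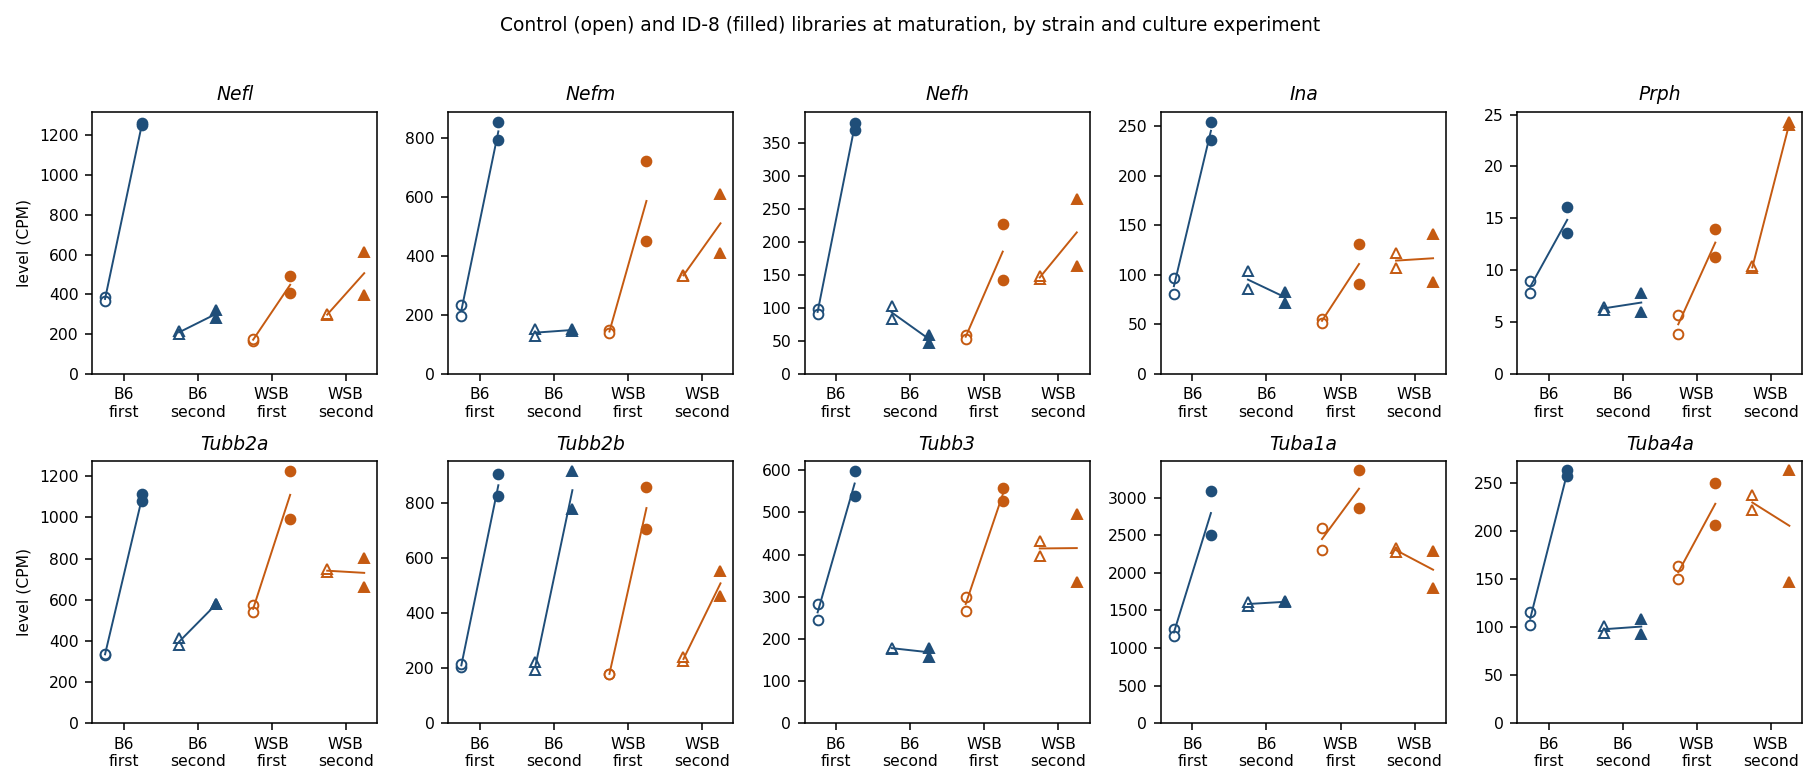
Level (CPM) of each gene at maturation in control (open) and ID-8 (filled) libraries by strain and culture experiment, circles for the first and triangles for the second, with lines joining the means. Tubb2b is higher with ID-8 in all 4 panels of strain and experiment, and Nefh in B6 is higher in the first and lower in the second.

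The difference of the ID-8 response between strains gave 0 calls among the 10 genes in edgeR's test (0.46% of all genes called), with 0 at an unadjusted p under 0.05 and 0 called by DESeq2. Of the pathway lists in B6, beside 17.1% of all genes called, 4 of 12 other tubulins tested were higher and 2 lower, 5 of 20 microtubule-associated proteins were higher and 1 lower, and other intermediate filament genes were 1 higher and 6 lower of 12. Motors, folding cofactors and cross-linkers had 0 calls in edgeR's test. Nes, the filament protein nestin of neural progenitors, rose by 1.04 in B6 and 1.62 in WSB, and Vash2, a tubulin detyrosinating enzyme, by 1.08 and 0.72. Oligodendrocyte markers summed to 148.3 to 281.3 CPM with ID-8 against 19.52 to 34.81 CPM in B6 and to 86.31 to 99.71 against 37.94 to 51.7 CPM in WSB, with 3 and 1 of 4 tested higher. Neural progenitor markers summed to 1165 to 1781 CPM with ID-8 against 624.6 to 1054 CPM in B6, with 2 higher and 1 lower of 6 tested. In WSB the sums overlapped, at 945.5 to 2127 against 871.7 to 1344 CPM, with 1 higher and 0 lower of 6. No pan-neuronal gene of 10 was called in either strain (1886 to 4471 against 2315 to 2905 CPM in B6). The part of these cells in the level of Tubb2b was not tested.

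Cutting the axons gave no called difference in any of the 10 genes. The test called 0% of 18106 genes in control B6, in control WSB, in B6 with ID-8 and in WSB with ID-8, and 0% for the difference between the strains' controls. Among the 10 genes, edgeR's test gave an unadjusted p under 0.05 to 0, 0, 0 and 1 in those contrasts and to 0 for the strain difference. The 1 was Tuba4a, at -0.49 in WSB with ID-8. DESeq2 called 0 of the 10 genes in each. The median log2 difference of the 10 ran from -0.24 to -0.18 over the 4 contrasts, against 0.01 to 0.02 over all genes.

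Nefl was at 475.3, 408.4, 444.3 and 489.1 CPM in uncut B6 controls and at 379.5, 361, 355.3 and 392 CPM in their cut partners. The groups did not overlap, and the log2 difference was -0.29 ± 0.27, with an interval from -0.82 to 0.24. In WSB it was at 318, 198.7, 261.9 and 323.7 CPM against 276.2, 101.7, 207.6 and 216.7 CPM, a difference of -0.47 ± 0.27 (interval from -0.997 to 0.059). Nefh was at 59.11, 59.51, 53.29 and 58.5 CPM against 42.66, 45.3, 34.8 and 34.01 CPM in B6, also without overlap, a difference of -0.56 ± 0.39 (interval from -1.32 to 0.20). In WSB Nefh was at 87.15, 52.87, 78.28 and 32.55 CPM against 72.54, 20.22, 53.61 and 27.01 CPM. Cut and uncut libraries of the same culture set form 14 pairs over strain and treatment. The standard errors and intervals above do not use this pairing. Nefl, Nefh and Tuba4a were lower after cutting in 14 of 14, Nefm and Tubb2a in 13, Ina, Tubb2b and Tubb3 in 12, Tuba1a in 9 and Prph in 6. The sets of control and ID-8 pairs are shared, so the 14 are not independent. Such counts were not made over all genes, so they do not set these 10 apart. With the culture set as a block and the WSB library that stood apart left out, Nefl in WSB controls fell by 0.53 (adjusted p = 0.04757). The fit called 1.51% of genes, and Nefl was the single call among the 10 genes. Use of the block was planned at this stage, but leaving out that library was chosen after the data were seen. With that library kept, the blocked value was -0.54 (adjusted p = 0.1194).

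**Figure D5:**
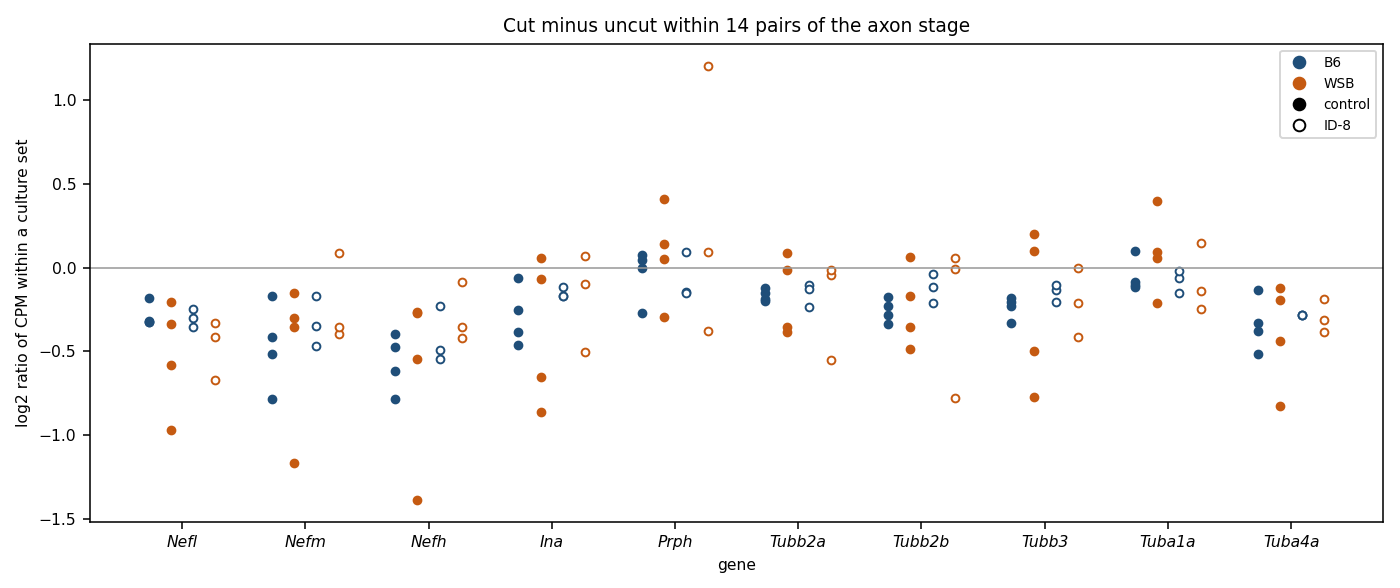
Log2 ratio of cut to uncut within 14 pairs of libraries of the same culture set, filled for controls and open for ID-8, by strain. For Nefl, Nefh and Tuba4a all 14 points lie below 0, and for Prph 6 do.

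ID-8 at the axon stage gave no called difference either, at 0% of 18106 genes in uncut B6, uncut WSB, cut B6 and cut WSB. None of the 10 genes had an unadjusted p under 0.05 in edgeR's test, and DESeq2 called 0 of them in each contrast. Nefm was the gene that came nearest. In cut B6 it was at 253.6, 186.5, 134 and 131.7 CPM in controls and at 392.2, 235.2 and 273 CPM with ID-8, and in cut WSB at 161.6, 56.44, 130.6 and 184.1 CPM against 246.5, 105.5, 165 and 261.2 CPM. The groups overlapped, but within culture sets Nefm was higher with ID-8 in 3 of 3 cut and 4 of 4 uncut B6 sets and in 4 of 4 cut and 2 of 3 uncut WSB sets. With the culture set as a block the log2 difference was 0.72 ± 0.17 (adjusted p = 0.03277) in cut B6, where 1.52% of genes were called, and 0.60 ± 0.15 (adjusted p = 0.04166) in cut WSB, where 1.97% were called. Both calls were lost in 3 of 4 fits without 1 culture set: the difference was then 0.57 to 0.77 in cut B6 (adjusted p = 0.2481 to 0.5601) and 0.49 to 0.63 in cut WSB (adjusted p = 0.06597 to 0.09496). In cut B6 the fit that kept the call left out the culture set with no cut ID-8 library, which forms no pair in this contrast. The WSB call was lost also when the third cut library with ID-8, which stood apart, was left out. Nefl in cut B6 had 0.46 in the same fit (adjusted p = 0.1252), and 0.54 (adjusted p = 0.03325) when 1 culture set with no cut ID-8 library was left out.

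Between the strains, the calls among the 10 genes were Tubb2a, Tubb2b, Tuba1a and Tuba4a in progenitors, Tubb2a and Tuba1a at maturation and Nefl at the axon stage. In progenitor controls 3 of the 10 genes were higher and 1 lower in WSB than in B6, where 45% of genes were called, at maturation 2 were higher and 0 lower (14.8% called), and in uncut axon-stage controls 0 were higher and 1 lower (13.2% called), shares near those of all genes. Tubb2a in progenitors ran from 139.8 through 202.2 to 347.7 CPM in B6 and from 633.8 through 709.7 to 886.9 CPM in WSB, without overlap, a log2 difference of 1.77 ± 0.26 (adjusted p = 1.376e-05, 3.4-fold). Tubb2b was higher by 0.79 ± 0.26 (adjusted p = 0.01801), and the pair summed by 0.96 (adjusted p = 0.004973). Tuba1a was higher by 0.88 ± 0.30 (adjusted p = 0.02023), and summed with its relatives by 0.67 (adjusted p = 0.003332). Tuba4a was lower in WSB, -2.09 ± 0.30 (adjusted p = 1.152e-05), again without overlap. In the second library block alone (16.3% of genes called) only Tubb2a and Tuba4a of the 10 were called, with Tubb2b at 0.78 (adjusted p = 0.2232) and Tuba1a at 0.84 (adjusted p = 0.2649). Pan-neuronal markers were 4 higher and 0 lower of 10 in WSB progenitors (list median 0.68) and all 6 pluripotency genes lower (-3.91), and their part in these values was not tested. Of the other tubulins Tuba3a was lower, at -3.60. Reads of a strain other than the reference can map less well where its sequence differs, which bears on strain values of single genes and was not tested.

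At maturation Tubb2a was higher in WSB by 0.82 (adjusted p = 0.03469) and Tuba1a by 0.77 (adjusted p = 0.04316). These calls were lost in 6 and 8 of 8 fits with a library left out; over the 8 fits values lay between 0.75 and 0.89 and between 0.69 and 0.84. They were lost for the summed counts also, at 0.57 (adjusted p = 0.0643) and 0.71 (adjusted p = 0.05885). With the culture experiment as a block 3 genes were higher (27.2% of genes called): Tubb2a (0.83, adjusted p = 0.01366), Tuba1a (0.74, adjusted p = 0.01718) and Tuba4a (0.93, adjusted p = 0.02521). These 3 were higher in either experiment alone also. The first experiment alone had 4 further genes lower in WSB, Nefl (-1.14), Nefh (-0.75), Ina (-0.73) and Prph (-0.82), with 28% of genes called. The second alone had 3 further genes higher, Nefm (1.25), Prph (0.69) and Tubb3 (1.20), with 29.8% called, so Prph turned in sign between the experiments. Nefl in uncut axon-stage controls was lower in WSB, at -0.85 ± 0.28 (adjusted p = 0.0444). Its 4 B6 libraries all lay above the 4 WSB libraries, and the call was lost in 7 of 8 fits with a library left out, at -0.94 to -0.70. In progenitors the 5 filament genes showed no called strain difference, and their median difference was 0.01.

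Over the 16 group means of log2 CPM, Nefh and Tuba4a followed each other (Pearson r = 0.863), as did Tubb3 and Tuba1a (0.970) and Tubb2b and Tubb3 (0.899). Nefl and Nefm had r = 0.779, and Ina and Tuba4a r = -0.878. These values describe points that share stages, strains and library blocks. The genes most like each member were taken from 10497 candidates by r over the same 16 means. Nefh was followed most closely by Vamp1, a synaptic vesicle fusion protein (0.992), Lynx1 (0.990) and Sult4a1 (0.987), and over the 70 libraries r with Vamp1 was 0.968. Ina was followed by Elavl4, a neuronal RNA-binding protein (0.981), Tubb2b by Nell2 (0.966), Tubb2a by Atp13a2, a lysosomal transporter (0.981), and Tuba4a by Ndufaf7 (0.958, and 0.859 over the 70 libraries). Smpd3, a neutral sphingomyelinase, came first for both Tubb3 (0.986) and Tuba1a (0.984). For Nefm it was Rarb, a retinoic acid receptor (0.941), for Nefl Chrna3, a nicotinic receptor subunit (0.852), and for Prph Gpx1 (0.933). Over the 70 libraries these 3 fell to 0.683, 0.722 and 0.593, where Scrt1 came first for Nefm (0.852).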

How the data were processed

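Bulk RNA-seq counts of 76 sequenced samples were used; 6 libraries had a further run, and runs were summed to 70 libraries. The deposited values are expected counts per gene, not normalized; the submitters' processing notes list GRCm38, limma, featureCounts, Bowtie2 and RSEM, with neither a version nor a role. Of the values, 9.318% were not whole and were rounded. The table held 38924 gene IDs, of which 37607 matched a symbol. Each comparison was fitted in edgeR 4.0.16 (R 4.3.3; quasi-likelihood, robust, TMM scaling, filterByExpr) on all genes, with Benjamini-Hochberg adjustment and a threshold of 0.05. Axon-stage and progenitor controls were compared within the second library block; fits at the progenitor and axon stages had the library block as a covariate. DESeq2 1.42.0 was an alternative. Levels are counts-per-million of TMM-scaled totals over the 70 libraries. Precision follows the 20368997 to 131489457 counts per library. The tests were tried on simulated counts before use. For cutting in control B6 they called 34.7% of changes of log2 size 1 and 77% of size 2, with 3 false calls. For ID-8 at maturation in B6 the shares were 39.8% and 80.6%, with 8 false calls. For ID-8 in B6 progenitors they were 60.6% and 88.9%, with 2 false calls. The simulated libraries carried no culture sets.

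The 10 members are a list of gene names; they and the lists of pathway and marker genes were chosen with earlier results of these data known. All 10 members were tested in every comparison, but in some the text gives values for only part of them. Genes named from a list were drawn from the up to 3 called genes with the smallest p. Genes named for likeness were drawn from the 3 most alike to each member. Culture-set names and replicate numbers in the table pair libraries within a strain. Counts of culture sets in which a gene was higher or lower, and counts of genes at an unadjusted p under 0.05, were made for the 10 members alone. Deviations from group means correlated above 0.1 in 21 of 21 axon-stage pairs in B6, 19 of 21 in WSB (19 of 19 without the library that stood apart), in all 3 progenitor pairs of each block and strain, and in 8 of 8 pairs per strain at maturation. The axon-stage correlations ran from 0.678 to 0.931 in B6 and, without the library that stood apart, from 0.637 to 0.926 in WSB. No 2 replicates agreed within sampling noise (chi-square per degree of freedom 8.559 to 807.7 over 126 pairs). Sequences are from the GRCm38 genome with GENCODE M21.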

Additional observations from a re-analysis of the deposited data

Results flagged for a closer look

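In groups of 4 to 6 libraries, the highest or lowest library stood clear of its group in 9 of 140 combinations of gene and group, where chance gives about 1 in 20. The fourth B6 progenitor control was highest for Nefl (974.4 CPM, next 548.6), Nefh (8.32, next 5.112) and Tubb2a (347.7, next 204.6). The first cut WSB control was highest for Tubb2a (2363 CPM, next 1228) and Tubb3 (1793, next 624.5). Nefh was lowest in the third uncut B6 control (53.29 CPM, next 58.5) and in the second uncut B6 library with ID-8 (33.17, next 68.58). Prph was highest in the second WSB progenitor control (10.64 CPM, next 5.606) and Tuba1a in the first WSB maturation control (2591, next 2324). Tuba4a changed between progenitors and the axon stage by different amounts in the strains, the difference being 2.70 (log2) by a test of the interaction.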

How the results depend on the processing

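Counts of the 10 genes called moved by over 1.5 times as follows. Leaving out each library gave 3 to 5 for the axon stage against progenitors in B6 and 1 to 2 for its strain difference (2 also with all libraries fitted). It gave 2 to 7 for ID-8 at maturation in B6, 1 to 2 in WSB, and 0 to 1 for the strains at maturation and at the axon stage. The strain difference of the axon-stage change had 399 calls over all genes in the main fit. It had 699 without the fourth B6 progenitor control and 1264 with all libraries fitted. The maturation fit with 7 called 2796 genes, against 2902 with every library kept. Either library block alone gave 1 (first) and 1 (second) for ID-8 in B6 progenitors, 0 and 0 in WSB, and the second gave 2 for the strains. DESeq2 gave 6 and 2 for ID-8 at maturation in B6 and WSB, where it called 3906 and 1820 of all genes against 2902 and 999 by edgeR. The first culture experiment alone gave 10 and 9 there and 7 for the strains, and the second 4 in WSB, 3 for the difference of the response and 6 for the strains. That test of the difference of the response called 3.64% of all genes. With no filter on low counts, or the second library block alone, the axon-stage strain count was 0. With a replicate block the count was 8 for the strain difference of ID-8 in progenitors, 2 for ID-8 at maturation in WSB, and 1 for ID-8 in cut B6 (1 without the WSB library apart, 2 without 1 set, 0 without each of the other 3) and 1 in cut WSB (1 without the third set, 0 without each of the other 3 or that library). It was 1 for cutting in WSB controls without that library. The block moved no other count by over 1.5 times. Its share of all genes called was 14.2% for ID-8 at maturation in WSB. In cut B6 the share was 4.12% without the WSB library apart and 1.69% in the fit with 2. In cut WSB it was 3.56% without the third set. Signs turned for Tubb2a at maturation in B6 when summed with Tubb2b (-1.54), and by culture experiment for Nefh with ID-8 in B6 (-0.83), Nefh in its strain difference (1.40), and the strain values of Nefh (-0.75) and Prph (-0.82). The cause was not tested. Another scaling (size factors or library totals) turned no sign. Standard errors of 0.27 to 0.39 for Nefl and Nefh come from the fit that does not use culture sets, and limit what cutting could show there. With the culture set as a block and all libraries kept, 0 of the 10 genes were called in each of the cut contrasts.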

Other observations

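The members moved together in different ways within each stage. Over the 24 progenitor libraries, log2 levels of Nefm and Tubb3 had r = 0.969, Ina and Tubb2b 0.955, and Tubb2b and Tuba1a 0.961, while Tuba4a was negative with each of these (Tubb2a -0.886, Tubb2b -0.864, Tuba1a -0.858, Nefm -0.780). Over the 16 maturation libraries Tuba4a was positive with Tubb3 (0.948), Nefm (0.855) and Tuba1a (0.823), and Nefh with Nefm (0.949). Tubb2b there was only weakly related to Tubb3 (0.350). Over the 30 axon-stage libraries Tubb2b and Tubb3 had r = 0.969 and Ina and Tubb3 0.925, and Tuba4a with Nefm -0.007. These are descriptions across libraries that share groups, culture sets and depth.

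Pathway genes outside the members were called between strains in progenitor controls, beside 45% of all genes: of 13 motors 8 were higher and 0 lower in WSB, of 20 microtubule-associated proteins 7 and 1, below the share of all genes, and of 11 other intermediate filament genes tested 0 and 6. Dync1i1 was higher by 1.17 and Dpysl2, a collapsin response mediator that binds tubulin, by 1.04, while Des, the muscle filament desmin, and Krt18, a keratin of simple epithelia, were lower by -2.02 and -1.86. At maturation 0 motors were higher and 3 lower in WSB.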
